A study of Mus musculus with 25 samples.

Results

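The genes described here are 36 interferon-stimulated genes, chosen by symbol as classical targets of interferon signalling. They were chosen with earlier results of these data known, so the shares below are descriptive. All 36 were in the count table, among 37085 gene symbols, and all 36 were among the 11869 genes with enough counts to be tested. Oas1a and Mx1 were near that limit, as given below. They were measured in hepatocytes of C57BL/6 mice, in 25 libraries of short tags read from the 3' end of polyadenylated RNA. Of these libraries, 5 came from mice on normal diet (ND) and 20 from mice on a diet that brings on NASH (non-alcoholic steatohepatitis), a fatty liver disease with inflammation and scarring, with 4, 3, 4, 3, 3 and 3 libraries after 1, 2, 3, 4, 5 and 6 weeks. The comparison asks how hepatocyte expression differs between the normal diet and each time on the NASH diet. Per the labels, collagenase was perfused through the liver, low-speed pellets of hepatocytes were taken, and these were purified on a cell sorter. The sort gate, the composition of the diets, and the age and sex of the mice were not stated in those labels. Whether every numbered library came from its own mouse is not said either, and a p-value here reflects only how these libraries scatter.

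Interferons are cytokines that cells release when they sense viral nucleic acid or other danger signals. Type I and type III interferons act through the kinases JAK1 and TYK2 on a transcription factor complex that holds STAT2 and IRF9 and binds the interferon-stimulated response element (ISRE), whereas interferon gamma acts mainly through the gamma-activated site (GAS). The induced genes block viral entry, translation and replication, present antigen, and feed back on the pathway. In liver both hepatocytes and the resident macrophages, the Kupffer cells, can respond to interferon, so these genes are not markers of 1 cell type. By role, the 36 genes were 4 signalling and transcription factors, 2 genes of feedback and the ISG15 system, 3 nucleic acid sensors, 16 direct antiviral effectors, 7 interferon-inducible GTPases, 3 genes of antigen processing and 1 secreted glycoprotein. The group of direct antiviral effectors is broad and also holds Trim30a, Parp14, Xaf1 and Ifi27, which are described otherwise below. The roles are those usually given to each gene. Whether each gene, such as Mx1, makes a working protein in these mice was not tested.

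Promoter windows from RefSeq (mouse build GRCm38.p6, 250 bases before to 50 bases after the annotated start) matched 28 of the 36 genes by symbol. Usp18, Dhx58, Zbp1, Mx1, Mx2, Ifi27, Parp14 and Iigp1 had no entry in that table. The ISRE core was searched as GAAANNGAA on both strands, and overlapping matches were each counted. It was found in 15 of the 28 genes (53.6%), against 9.76% of 27025 genes with a window of that length in the same table. The GAS core, TTCNNNGAA, which reads the same on both strands, was found in 8 of 28 (28.6%), against 9.55% of all genes. An ISRE match was found in 7 of the 12 genes with a window that were higher in at least 1 comparison below (58.3%) and in 8 of the 16 that were not (50.0%). A GAS match was found in 3 of those 12 and in 5 of those 16. Matches of these letters describe the window and are not measured binding sites.

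The windows below show the match in 9 of these genes, each with 25 bases on either side where the window upstream of the start allows it, so that genes that rose late on the diet can be read beside genes with the same motif that did not. Capitals mark the ISRE matches, and matches that overlap run together. Gbp2 (chr3:142620580-142620638, plus strand), Gbp3 (chr3:142559975-142560039, plus strand), Ifit3 (chr19:34583349-34583460, plus strand), Oas1a (chr5:120907526-120907570, minus strand) and Trim30a (chr7:104465195-104465253, minus strand) were higher at 1 or more times on the diet:
Gbp2: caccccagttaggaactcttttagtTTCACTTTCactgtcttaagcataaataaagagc
Gbp3: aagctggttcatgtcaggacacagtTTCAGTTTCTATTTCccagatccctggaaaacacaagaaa
Ifit3: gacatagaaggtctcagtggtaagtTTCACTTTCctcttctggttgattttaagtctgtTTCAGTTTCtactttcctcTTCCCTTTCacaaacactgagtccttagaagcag
Oas1a: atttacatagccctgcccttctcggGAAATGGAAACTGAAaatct
Trim30a: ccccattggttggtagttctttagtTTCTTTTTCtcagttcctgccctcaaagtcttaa
Ifit1 (chr19:34640755-34640838, plus strand), Isg15 (chr4:156200851-156200921, minus strand), Igtp (chr11:58199497-58199555, plus strand) and Irgm1 (chr11:48871421-48871475, minus strand) carry the same motif and passed the test in no comparison:
Ifit1: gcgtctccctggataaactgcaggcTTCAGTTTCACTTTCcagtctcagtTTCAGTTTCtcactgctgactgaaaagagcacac
Isg15: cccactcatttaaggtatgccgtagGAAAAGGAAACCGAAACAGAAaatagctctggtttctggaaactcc
Igtp: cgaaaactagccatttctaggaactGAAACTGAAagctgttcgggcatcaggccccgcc
Irgm1: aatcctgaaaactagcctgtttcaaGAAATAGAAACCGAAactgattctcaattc

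Each library held between 5281143 and 10015751 counts. Levels are counts per 1000000 counts of the library (CPM). Fold changes come from edgeR, which also scales libraries by composition, and that scaling lowers them relative to CPM: with library size alone, the median log2 fold change of all genes lay higher by 0.0927 to 0.163 at weeks 1 to 4, by 0.335 at week 5, by 0.303 at week 6 and by 0.215 for weeks 5 and 6 against weeks 1 to 3. A gene was called higher or lower at a Benjamini-Hochberg adjusted p under 0.05 in edgeR's quasi-likelihood test over all 11869 genes. Hepatocyte markers were abundant in every library, with 11 of them summing to 76810 to 102500 CPM. Markers of other liver cells were present as well and were higher late on the diet, as given at the end. In bulk RNA of this kind, fewer cells of a type and less RNA per cell cannot be told apart. How the counting treated reads shared by close copies, such as Ifit3 and Ifit3b or the members of the Oas, Gbp and Trim30 families, was not stated, so the split between such copies is uncertain.

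The interferon-stimulated genes did not move as a block. At weeks 5 and 6 a group made of Ifit2, Ifit3, Oasl2, Ifi44, Parp14, Trim30a, Gbp2, Gbp3, Irf1 and Lgals3bp was higher than on normal diet, while Isg15, Usp18, Ifit1, Irf9, Stat2, the antigen-processing genes and most GTPases did not pass the test in any comparison, and Iigp1 was lower after composition scaling. At weeks 1, 2 and 3 none of the 36 passed the test. The heat map of all 36 genes shows these 2 late weeks as the darkest columns for the first group, beside a single normal-diet library, number 2, in which most genes were high.

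**Figure D1:**
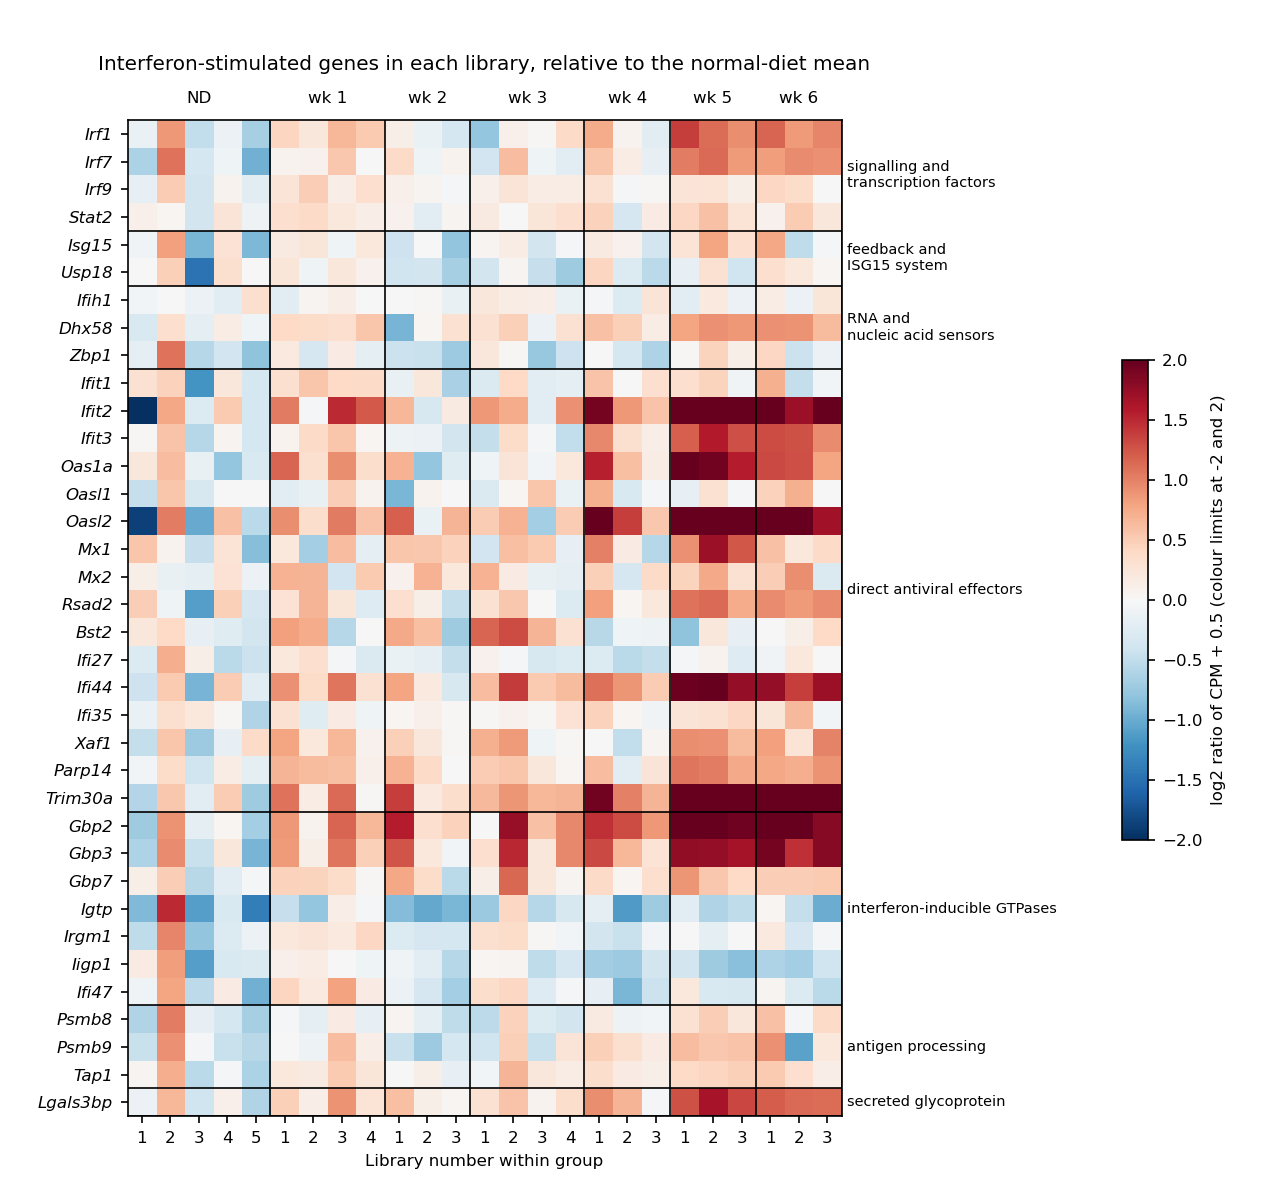
Level of each of the 36 genes (rows, by role) in each of the 25 libraries (columns, by diet group), as the log2 ratio of CPM + 0.5 to the mean of the normal-diet libraries, with colours limited at -2 and 2. Red at weeks 5 and 6 runs through Ifit2, Ifit3, Oasl2, Ifi44, Trim30a, Gbp2, Gbp3 and Lgals3bp and is absent from Igtp and Iigp1. Normal-diet library 2 is red in most rows.

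Single libraries stood apart in these genes. Normal-diet library 2 was the highest of its group for 31 of the 36 genes (86.1%, against 25.8% of all genes tested), and its median ratio to the mean of the other 4 libraries was 0.79 on the log2 scale (0.0478 over all genes). It held the highest value of all 25 libraries for 10 genes: Irf9, Isg15, Usp18, Zbp1, Ifi27, Igtp, Irgm1, Iigp1, Psmb8 and Tap1. Igtp, a GTPase that acts against intracellular parasites and bacteria, stood at 16.4, 86.4, 14, 24.5 and 11.4 CPM in normal-diet libraries 1 to 5, so that library 2 was 5.22-fold above the mean of the rest. Psmb8, a subunit of the immunoproteasome, stood at 24.7, 77.0, 33.4, 29.3 and 23.5 CPM there, and Isg15, a ubiquitin-like protein joined to other proteins after interferon, at 18.5, 34.8, 10.1, 24 and 10.2 CPM. Zbp1, a sensor of Z-form nucleic acid, stood at 5.51, 14, 4.10, 4.76 and 3.41 CPM. In each of these 4 genes library 2 lay above the other 4 normal-diet libraries. Its mean log2 level of Kupffer, endothelial and stellate markers, 3.53, lay within the normal-diet range of 2.27 to 4.11. Its summed monocyte, macrophage and dendritic cell markers, by contrast, were the highest on normal diet, at 300.3 CPM against 62.6, 134.5, 159.9 and 40.3 CPM in libraries 1, 3, 4 and 5. That list includes the antigen-presentation genes H2-Ab1, H2-Eb1 and Cd74, which interferon can also raise. The sum is therefore not a measure of those cells alone. The part of those cells in the values of library 2 was not tested.

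At week 3, library 2 was the highest of its 4 libraries for 27 of the 36 genes (75.0%, against 31.0% of all genes), including all 7 GTPases, with a median log2 ratio to the other 3 of 0.346 (0.0362 over all genes). With composition scaling it was the highest for 23. Gbp7, a guanylate-binding protein, stood at 41.2, 85.0, 44.6 and 39.2 CPM in week 3 libraries 1 to 4. Gbp2, which coats and breaks open vacuoles that hold pathogens, stood at 3.02, 11.4, 4.83 and 6.39 CPM, and Igtp at 18.1, 40.9, 20.5 and 24.3 CPM. Library 2 was the high one each time, and the other 3 lay close together in Gbp7 and Igtp. Its summed monocyte, macrophage and dendritic cell markers were 545 CPM against 164, 182 and 243 CPM in the other 3, and its Kupffer markers 879 CPM against 571, 524 and 632 CPM. The first of these sums again includes H2-Ab1, H2-Eb1 and Cd74, which interferon can also raise. The part of those cell types in the values of library 2 was not tested. Bst2 (tetherin), which holds budding virions on the cell surface, followed another order at week 3, with 94.8, 105, 67.3 and 51.7 CPM, so that libraries 1 and 2 were both high.

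At week 4, library 1 was the highest of 3 for 31 of the 36 genes (86.1%, against 49.2% of all genes). It also held the highest mean log2 level of Kupffer, endothelial and stellate markers of that week, 5.27, against 4.82 and 4.21 in libraries 2 and 3. Where leaving out one of these 3 libraries changed a call below, this is stated beside the result.

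At weeks 1, 2 and 3, 0 of the 36 genes were called higher and 0 lower than on normal diet. Of all genes tested, 0.219% were called higher and 0.977% lower at week 1. Week 2 had 0.227% higher and 0.657% lower, and week 3 had 0.244% higher and 0.607% lower, so that few genes were called at all. DESeq2 and limma voom also called 0 of the 36 at each of these weeks, as did edgeR with any 1 library left out. An unadjusted p under 0.05 was reached by 3 genes at week 1 (Ifit2, Ifi44 and Parp14), 1 at week 2 (Gbp2) and 5 at week 3 (Bst2, Ifi44, Trim30a, Gbp2 and Gbp3), all of them above normal diet. The median log2 fold change of the 36 was 0.19 at week 1, -0.08 at week 2 and 0.09 at week 3, beside 0.02, 0.00 and 0.02 over all genes. These medians turned on single libraries: without normal-diet library 2 they were 0.42, 0.11 and 0.27, so that the week 2 value changed sign, and without week 3 library 2 the week 3 median was 0.03.

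The smallest p before week 4 was that of Ifi44, an interferon-induced antiviral protein, at week 3. It stood at 4.51, 9.19, 3.01, 9.02 and 5.3 CPM on normal diet and at 9.81, 17.1, 9.18 and 9.95 CPM at week 3. The ranges overlapped by a narrow margin, since the lowest week 3 library lay just below the highest normal-diet library. The difference was 0.78 ± 0.26 (standard error, SE) on the log2 scale, with an adjusted p of 0.182. Without week 3 library 2, the highest of that week, it was 0.55 ± 0.27 (SE, adjusted p = 0.575). Bst2 stood at 49.3, 55.3, 37.2, 35.4 and 32.6 CPM on normal diet against the week 3 values above, a log2 difference of 0.83 ± 0.31 (SE, adjusted p = 0.250). At week 3, Trim30a was the 1 gene of the 36 (2.78%) whose libraries all lay above those on normal diet, beside 4.06% of all genes on the same CPM scale. At week 1 that gene was Dhx58, beside 4.09% of all genes.

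At week 4, 2 of the 36 genes were called higher (5.56%, against 5.43% of all genes) and 0 lower (2.86% of all genes). They were Trim30a, which restrains signalling by Toll-like receptors, and Gbp2. Trim30a stood at 7.01, 16, 9.16, 15.5 and 6.44 CPM on normal diet and at 42.4, 22.3 and 17.6 CPM at week 4, where all 3 libraries lay above the normal-diet ones and library 1 far above the rest. Its log2 fold change was 1.14 ± 0.30 (SE, adjusted p = 0.0242). Gbp2 stood at 1.67, 6.12, 2.60, 3.13 and 1.70 CPM on normal diet and at 9.21, 8.29 and 5.98 CPM at week 4, where the lowest library lay just below normal-diet library 2. Its log2 fold change was 1.18 ± 0.36 (SE, adjusted p = 0.0416).

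Both week 4 calls were lost when certain single libraries were left out. That of Trim30a was kept in 5 of 8 fits with 1 library left out, and that of Gbp2 in 2 of 8. Without week 4 library 1, 0 of the 36 genes were called: the log2 fold change of Trim30a was then 0.76 ± 0.31 (SE, adjusted p = 0.238), and that of Gbp2 was 1.10 ± 0.41 (SE, adjusted p = 0.183), close to its value with all libraries. The count was also 0 without normal-diet library 1 or 5. Gbp2 alone lost its call without normal-diet library 3 or 4 or week 4 library 2. Without normal-diet library 2, 4 genes were called higher: Trim30a, Gbp2, Oasl2 (2.14 ± 0.54, SE, adjusted p = 0.0284) and Lgals3bp (0.63 ± 0.18, SE, adjusted p = 0.0404). Kupffer markers at week 4 summed to 1290, 987 and 514 CPM in libraries 1 to 3, and Trim30a and Gbp2 both followed that order. The part of those cells in these values was not tested.

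At week 5, 14 of the 36 genes were called higher than on normal diet (38.9%, against 19.1% of all genes) and 1 lower (16.3% of all genes). These 14 include Oas1a and Mx1, whose counts were low. With only the groups compared in the model, 34 genes had enough counts at weeks 1 to 4 and 6, and 36 at week 5. Oas1a and Mx1 thus entered through libraries where they were high. A filter of 5 CPM in 3 libraries left both out, and 12 of 34 genes were then called higher at week 5. At week 6, 10 were called higher (27.8%, against 16.3% of all genes) and 1 lower (10.5% of all genes). Both weeks were set against the same 5 normal-diet libraries, so their calls are not independent of each other. The median log2 fold change of the 36 was 0.25 at week 5 and 0.17 at week 6, beside -0.05 over all genes at both, and without normal-diet library 2 it was 0.45 and 0.32. On the CPM scale 17 genes at week 5 (47.2%) and 13 at week 6 (36.1%) had every library above every normal-diet library, beside 34.8% and 26.3% of all genes. Without normal-diet library 2, 15 genes were called higher at week 5 and 13 at week 6, now with Irf7 at both weeks, and Iigp1 was still the 1 gene called lower.

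**Figure D2:**
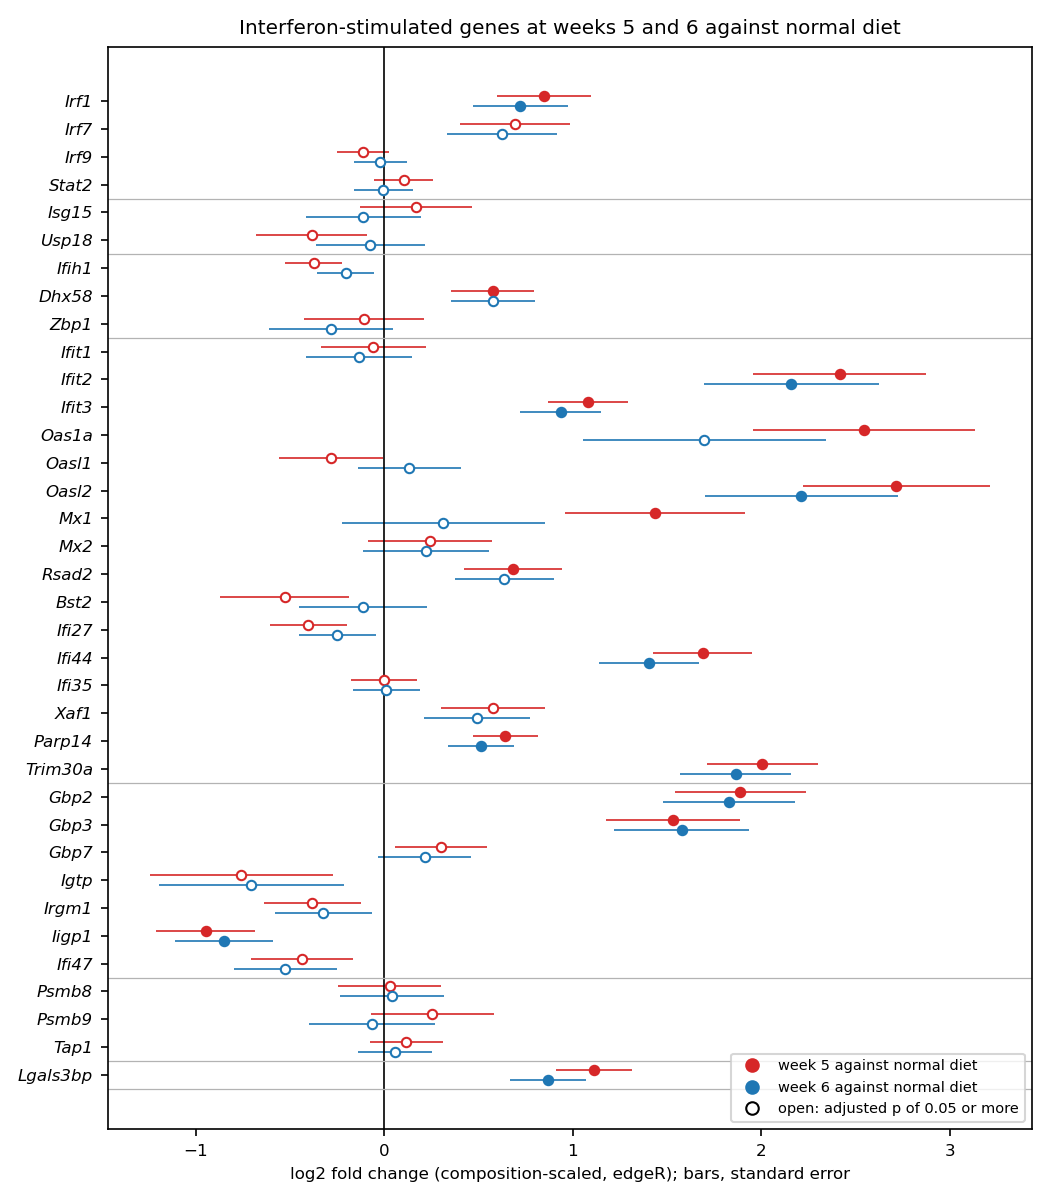
Composition-scaled log2 fold change against normal diet of each of the 36 genes at week 5 (red) and week 6 (blue), with bars of 1 standard error and open points for an adjusted p of 0.05 or more. Filled points sit to the right for Oasl2, Oas1a, Ifit2, Trim30a, Gbp2, Ifi44 and others, and to the left only for Iigp1.

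The genes grouped as direct antiviral effectors held most of the rises. At week 5, 9 of 16 were higher (56.2%, against 19.1% of all genes) and 0 lower. These 9 include Oas1a and Mx1, for which the limit of low counts given above holds. At week 6, 6 of 16 were higher (37.5%, against 16.3% of all genes) and 0 lower. Oasl2 and Oas1a belong to the oligoadenylate synthetase family, which links the sensing of double-stranded RNA to the degradation of RNA in the cell. Oasl2 stood at 0, 3.22, 0.410, 2.25 and 0.757 CPM on normal diet, at 13.0, 10.2 and 10.5 CPM at week 5 and at 8.92, 8.99 and 5.34 CPM at week 6. All 6 late libraries lay above the 5 normal-diet ones. Its log2 fold change was 2.71 ± 0.50 at week 5 (SE, adjusted p = 0.000201) and 2.21 ± 0.51 at week 6 (SE, adjusted p = 0.0024). Oas1a was low throughout, at 0 to 0.806 CPM on normal diet and at 2.95, 2.76 and 2.04 CPM at week 5, a log2 fold change of 2.54 ± 0.59 (SE, adjusted p = 0.0015). At week 6 it stood at 1.63, 1.58 and 0.972 CPM and missed the threshold (adjusted p = 0.0515), which it passed without normal-diet library 2 (log2 2.23 ± 0.71, SE, adjusted p = 0.023). The 0 of Oasl2 in normal-diet library 1 allows up to 0.501 CPM at that depth and the 0 of Oas1a in library 4 up to 0.376 CPM, counting error only.

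The Ifit genes, whose proteins bind foreign RNA and block its translation, divided. Ifit2 stood at 0, 3.06, 1.23, 2.50 and 1.14 CPM on normal diet, at 10.9, 12.7 and 9.26 CPM at week 5 and at 11.2, 6.31 and 9.39 CPM at week 6. Ifit3 stood at 9.02, 13.4, 5.75, 9.14 and 6.82 CPM on normal diet, at 20.9, 27.4 and 22.2 CPM at week 5 and at 22.5, 22.1 and 17.5 CPM at week 6. In both genes every late library lay above every normal-diet library. The log2 fold changes at week 5 were 2.41 ± 0.46 for Ifit2 (SE, adjusted p = 0.000261) and 1.08 ± 0.21 for Ifit3 (SE, adjusted p = 0.000315), and at week 6 they were 2.16 ± 0.46 and 0.93 ± 0.21. Ifit1, which recognises the cap of viral RNA, stood at 19.7, 22.1, 6.70, 18.8 and 12.3 CPM on normal diet, at 20.3, 21.9 and 15.1 CPM at week 5 and at 26.5, 11.3 and 15.4 CPM at week 6. The ranges overlapped, and the log2 fold change at week 5 was -0.06 ± 0.28 (SE, adjusted p = 0.896). The Ifit1 and Ifit3 windows printed above each hold 3 ISRE matches.

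**Figure D3:**
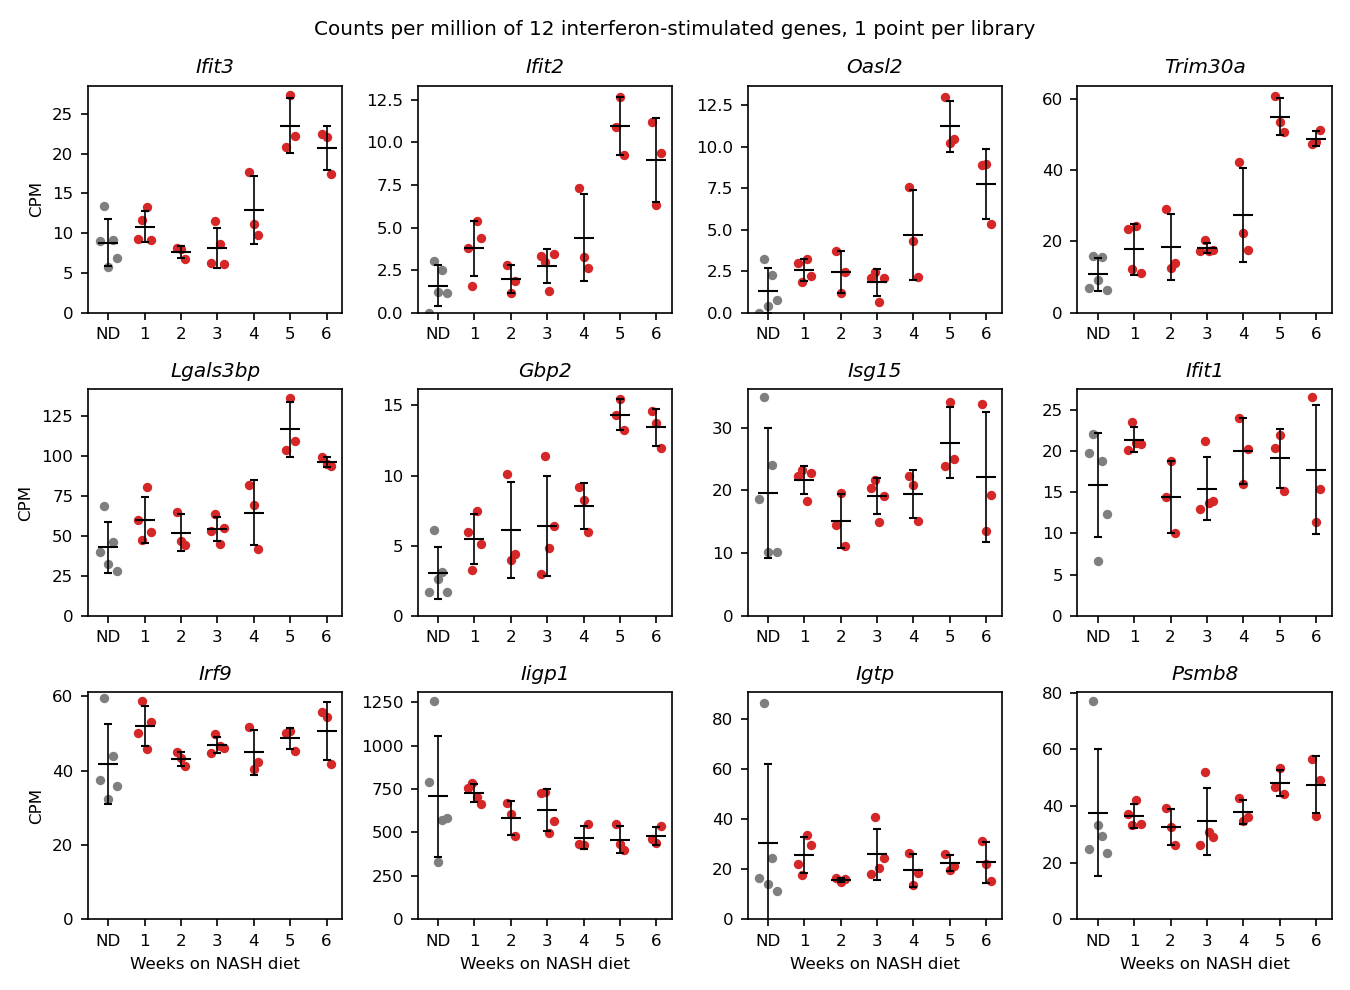
CPM of 12 of the genes against weeks on the NASH diet, 1 point per library (grey, normal diet; red, NASH diet), with the group mean and bars of 1 SD; the lower bar of Igtp on normal diet is truncated at 0. In Ifit3, Ifit2, Oasl2, Trim30a, Lgals3bp and Gbp2 the week 5 and week 6 points lie above all normal-diet points, and in Isg15, Ifit1, Irf9, Iigp1, Igtp and Psmb8 they overlap them.

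Ifi44 stood at 25.7, 28.0 and 22.1 CPM at week 5 and at 22.2, 17.0 and 21.5 CPM at week 6, all above the normal-diet range of 3.01 to 9.19 CPM. Its log2 fold change was 1.69 ± 0.26 at week 5 (SE, adjusted p = 3.9e-05) and 1.40 ± 0.27 at week 6 (SE, adjusted p = 0.000408). Trim30a stood at 60.9, 53.5 and 50.7 CPM at week 5 and at 47.2, 47.9 and 51.2 CPM at week 6. These are 4.01-fold (log2 2.00 ± 0.29, SE) and 3.64-fold (log2 1.86 ± 0.30, SE) above normal diet after composition scaling, with adjusted p-values of 3.26e-05 and 0.000121. Ifi44 and Trim30a were called at both weeks whichever single library was left out.

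Of the remaining effectors, Parp14, an ADP-ribosyltransferase, was higher at both weeks, with 50.9 ± 5.81 CPM (SD, n = 3) at week 5 and 45.5 ± 3.00 CPM (SD, n = 3) at week 6 against 25.9 ± 5.49 CPM (SD, n = 5). Its log2 fold change was 0.64 ± 0.17 at week 5 and 0.51 ± 0.17 at week 6 (SE, adjusted p = 0.00504 and 0.0292), and the week 6 call was kept in 3 of 8 fits with 1 library left out: it was lost without normal-diet library 1, 3 or 5 or week 6 library 1 or 3. Rsad2 (viperin), which makes a chain-terminating nucleotide, was called higher at week 5, at 43.4, 44.9 and 34.3 CPM against 28.7, 19.2, 9.16, 28.4 and 15.9 CPM. That call (log2 0.68 ± 0.26, SE, adjusted p = 0.0451) was kept in 2 of 8 such fits: it was lost without normal-diet library 2, 3 or 5 or any 1 week 5 library. For Mx1 the limit of low counts given above applies. Mx1 was called higher at week 5, at 1.86, 3.58 and 2.45 CPM against 0.189 to 1.34 CPM (log2 1.44 ± 0.48, SE, adjusted p = 0.0216). It stood at 1.38, 0.946 and 1.13 CPM at week 6, and its week 5 call was lost without normal-diet library 3 or week 5 library 2. Mx2, Oasl1, Bst2, Ifi27, Ifi35 and Xaf1 passed the test at neither week, but without normal-diet library 2 Xaf1, a pro-apoptotic protein, was called higher at week 5 (log2 0.76 ± 0.28, SE, adjusted p = 0.0392). Ifi27, a small mitochondrial and membrane protein, stood at 124 ± 14.1 CPM (SD, n = 3) at week 5, within the normal-diet range of 89.3 to 216 CPM.

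The 7 GTPases did not move together. The guanylate-binding proteins Gbp2 and Gbp3 were higher at both weeks, and Iigp1 was lower at both. Gbp2 stood at 14.3, 15.4 and 13.2 CPM at week 5 and at 14.6, 13.7 and 12 CPM at week 6, above the normal-diet range of 1.67 to 6.12 CPM. Its log2 fold change was 1.89 ± 0.35 at week 5 (SE, adjusted p = 0.000187) and 1.83 ± 0.35 at week 6 (SE, adjusted p = 0.000448). Gbp3 stood at 12.7, 12.5 and 11.7 CPM at week 5 and at 14.1, 10.1 and 13.1 CPM at week 6, against 2.00, 6.93, 2.33, 4.01 and 1.51 CPM on normal diet, and its log2 fold changes were 1.53 ± 0.36 and 1.58 ± 0.36 (SE, adjusted p = 0.00163 and 0.00198). Both genes were called at both weeks whichever single library was left out. Gbp7 stood at 40.9, 53.5, 25.6, 32.7 and 36.7 CPM on normal diet and at 70.2, 55.1 and 50.1 CPM at week 5, where the ranges overlapped (log2 0.30 ± 0.24, SE, adjusted p = 0.364).

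Iigp1 is an immunity-related GTPase that attacks the vacuoles of intracellular pathogens. It stood at 793, 1261, 330.4, 574 and 581 CPM on normal diet, at 547, 433 and 396 CPM at week 5 and at 460.1, 440.3 and 539 CPM at week 6. The late libraries lay within the normal-diet range, below 4 of its 5 libraries and above library 3. The log2 fold change was -0.95 ± 0.26 at week 5 (SE, adjusted p = 0.00689) and -0.85 ± 0.26 at week 6 (SE, adjusted p = 0.0177). With library size alone as the scaling, the week 5 value was -0.62 and did not pass the test (adjusted p = 0.0733), and 0 genes were then called lower at either week. The call was kept at week 5 whichever single library was left out, at -0.65 without normal-diet library 2, and was lost at week 6 without week 6 library 1 or 2.

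Irgm1, Igtp and Ifi47, also immunity-related GTPases, passed the test in no comparison with all libraries. Ifi47 stood at 42.3, 78.5, 31.1, 50.6 and 22.9 CPM on normal diet, at 52.0, 36.5 and 36.1 CPM at week 5 and at 46.9, 37.4 and 30.8 CPM at week 6, all within the normal-diet range. For Igtp the log2 fold change at week 5 was -0.76 ± 0.49 (SE) with all libraries and 0.09 ± 0.28 (SE) without normal-diet library 2, so that the sign of its value turned on that library. For Irgm1 the values were -0.38 ± 0.26 (SE) and 0.02 ± 0.18 (SE). None of these 4 values passed the test.

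Among the signalling genes, Irf1, a transcription factor that interferon gamma induces, was higher at both weeks. It stood at 27.4, 55.4, 21.2, 27.9 and 18.9 CPM on normal diet, at 79.6, 66.2 and 58.2 CPM at week 5 and at 68.1, 54.7 and 60.1 CPM at week 6. Only week 6 library 2 overlapped the normal-diet range, through normal-diet library 2. The log2 fold change was 0.85 ± 0.25 at week 5 (SE, adjusted p = 0.0107) and 0.72 ± 0.25 at week 6 (SE, adjusted p = 0.036). The week 5 call was lost without week 5 library 1 and the week 6 call was lost without any 1 library other than normal-diet library 2. Irf7, which amplifies the type I interferon response, stood at 15.0, 50.1, 18.3, 22.0 and 11.7 CPM on normal diet and at 48.2, 51.8 and 42.8 CPM at week 5. It missed the threshold (log2 0.70 ± 0.29, SE, adjusted p = 0.0674) and passed it without normal-diet library 2 (log2 1.15 ± 0.20, SE, adjusted p = 0.000148).

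Irf9 and Stat2, subunits of the factor that binds the ISRE, passed the test at no week. Irf9 stood at 37.4, 59.6, 32.4, 44.0 and 35.8 CPM on normal diet, at 50.2, 50.6 and 45.4 CPM at week 5 and at 55.9, 54.4 and 41.8 CPM at week 6. Its late libraries fell between the normal-diet libraries, with a log2 fold change of -0.11 ± 0.14 (SE, adjusted p = 0.574) at week 5. Isg15 and the protease that removes it, Usp18, also did not pass. Isg15 stood at 23.8, 34.0 and 24.9 CPM at week 5 (log2 0.17 ± 0.30, SE, adjusted p = 0.701). Usp18 stood at 6.51, 9.35, 2.05, 8.39 and 6.63 CPM on normal diet and at 5.79, 8.27 and 4.90 CPM at week 5 (log2 -0.39 ± 0.29, SE, adjusted p = 0.329).

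Of the 3 sensors, Dhx58 (LGP2), a regulator of the RNA helicases that detect viral RNA, was higher at week 5. It stood at 4.18, 6.77, 4.51, 5.89 and 4.92 CPM on normal diet, at 9.40, 10.3 and 9.94 CPM at week 5 and at 10.3, 10.2 and 8.42 CPM at week 6. All 6 late libraries lay above normal diet, but the log2 fold change of 0.58 ± 0.22 (SE) at both weeks passed the test at week 5 (adjusted p = 0.0433) and not at week 6 (adjusted p = 0.0562). Without normal-diet library 2 it passed at week 6 as well (log2 0.67 ± 0.23, SE, adjusted p = 0.0383). The week 5 call was lost without normal-diet library 1 or 3 or any 1 week 5 library. Ifih1 (MDA5), a helicase that detects long double-stranded RNA, stood at 29.8, 39.8 and 32.0 CPM at week 5, within the normal-diet range of 29.9 to 43.4 CPM but for library 1 (log2 -0.37 ± 0.15, SE, adjusted p = 0.0573). Zbp1 passed the test at neither week.

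The antigen-processing genes Psmb8, Psmb9 and Tap1, of the immunoproteasome and the peptide transporter, passed the test in no comparison. Psmb9 stood at 19.5, 50.6, 26.1, 19.4 and 18 CPM on normal diet, at 41.4, 39.0 and 39.8 CPM at week 5 and at 50.9, 12.5 and 30.9 CPM at week 6. Week 5 lay above 4 of the 5 normal-diet libraries and below library 2, and week 6 ran from the lowest to the highest value of all 25 libraries. Without normal-diet library 2 the 3 genes had log2 fold changes of 0.44, 0.60 and 0.36 at week 5, and still missed the threshold (adjusted p = 0.0592, 0.117 and 0.077).

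Lgals3bp, a secreted glycoprotein that binds galectins, was higher at both weeks. It stood at 39.8, 68.7, 32.4, 46.0 and 28.0 CPM on normal diet, at 104, 136 and 109.7 CPM at week 5 and at 99.6, 95.2 and 93.9 CPM at week 6. Every late library lay above every normal-diet library. The log2 fold change was 1.11 ± 0.20 at week 5 (SE, adjusted p = 0.000163) and 0.87 ± 0.20 at week 6 (SE, adjusted p = 0.00236), called whichever single library was left out.

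Within the NASH diet, weeks 5 and 6 were compared with weeks 1 to 3, each week weighted equally. The normal-diet libraries enter neither mean, but they were in the model and so in its scaling and estimate of the spread. Of the 36 genes, 13 were higher late (36.1%, against 20.5% of all genes) and 2 were lower (18.4% of all genes). With library size alone as the scaling these counts were 14 and 0. With only the groups compared in the model they were 13 and 4. With a filter of 5 CPM in 3 libraries, which Oas1a and Mx1 did not pass, they were 12 and 2. With week 3 library 2 or any other 1 library left out the counts were again 13 and 2. The genes behind them were the same but for 1 case: without week 5 library 1 the 2 lower genes were Iigp1 and Ifi47 (log2 -0.56, adjusted p = 0.0351), and Bst2 was no longer called (log2 -0.65, adjusted p = 0.0519). The 13 were Irf1, Irf7, Dhx58, Ifit2, Ifit3, Oas1a, Oasl2, Rsad2, Ifi44, Trim30a, Gbp2, Gbp3 and Lgals3bp. On the CPM scale 11 of the 36 (30.6%), Parp14 and 10 of the 13, had every late library above every early one, beside 11.3% of all genes.

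By size of change in that comparison, Oasl2 (log2 1.84 ± 0.33, SE), Oas1a (1.65 ± 0.40) and Ifit2 (1.64 ± 0.30) came first, and Ifit3 had the smallest adjusted p (log2 1.12 ± 0.15, SE, adjusted p = 4.26e-06). Ifit3 stood at 9.27, 11.7, 13.3 and 9.11 CPM at week 1, at 8.15, 8.05 and 6.72 CPM at week 2 and at 6.19, 11.5, 8.70 and 6.14 CPM at week 3, all below the lowest late library at 17.5 CPM. Irf7 stood at 24.7, 24.8, 34.3 and 23.2 CPM at week 1, at 30.8, 22.1 and 24.8 CPM at week 2 and at 18, 36.2, 22.1 and 20.3 CPM at week 3, and was higher late by 0.64 ± 0.20 (SE, adjusted p = 0.0157). The ranges of both genes did not overlap between early and late weeks.

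The 2 genes lower late were Bst2 and Iigp1. Bst2 stood at 74.6, 70.9, 28.1 and 42.0 CPM at week 1, at 71.3, 64.1 and 25.3 CPM at week 2, at 23.8, 49.2 and 37.3 CPM at week 5 and at 42.2, 45.6 and 55.2 CPM at week 6. Early libraries were widely spread and overlapped the late ones, and the log2 difference of -0.76 ± 0.24 (SE, adjusted p = 0.0158) was no longer called without week 5 library 1. Iigp1 stood at 666 to 787 CPM at week 1, 479 to 669 CPM at week 2 and 496 to 734 CPM at week 3, and was lower late by -0.67 ± 0.18 on the log2 scale (SE, adjusted p = 0.00531). Neither call was made with library size alone.

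The other genes of the pathway, from lists chosen by role, were counted in the same tests, in which 19.1% of all genes were higher and 16.3% lower at week 5, and 16.3% higher and 10.5% lower at week 6. Of 13 interferon genes, 9 had 0 counts in every library and none had enough counts to be tested: Ifnk had 9 counts in all, Ifng 4, Ifnab 2 and Ifnl3 1. A count of 0 over all libraries together allows up to 0.0166 CPM, counting error only. Of 6 receptor genes, 5 had enough counts to be tested, and 3 were higher and 0 lower at each of weeks 5 and 6. These were Il10rb (log2 2.23 ± 0.37 at week 5, SE), Ifngr1 (1.09 ± 0.23) and Ifngr2 (0.74 ± 0.18). Il10rb codes for a subunit that the type III interferon receptor shares with other cytokine receptors. Ifngr1 and Ifngr2 code for both subunits of the interferon gamma receptor. The type I receptor genes Ifnar1 and Ifnar2 did not pass at either week.

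Of 13 kinases, STATs and IRFs tested, 6 were higher and 1 lower at week 5, and 3 were higher and 1 lower at week 6, where the share higher was near that of all genes. Irf8, a transcription factor of macrophages and dendritic cells, averaged 9.32 ± 3.93 CPM (SD) in the 5 normal-diet libraries and 56.0 ± 5.45 CPM (SD) in the 3 of week 5 (log2 2.23 ± 0.32, SE). Jak1 was higher too (0.67 ± 0.11). Of 9 inhibitors, 5 were higher at week 5 and 2 at week 6, again near that share, with 0 lower, among them Ptpn1 (0.84 ± 0.14), Ptpn6 (0.73 ± 0.17), Socs3 (1.53 ± 0.40) and Socs1 (1.67 ± 0.62) at week 5. Of 13 upstream sensors and adaptors tested, 5 were higher and 1 lower at each week: Tlr4 (2.85 ± 0.48), Tlr7 (2.48 ± 0.47), Sting1 (2.07 ± 0.40), Cgas (1.79 ± 0.42) and Tlr3 (0.79 ± 0.25) rose at week 5.

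A further 78 interferon-stimulated genes outside the 36 were tested, from a list also chosen with earlier results of these data known. The test called 1 higher at week 2, 9 higher and 1 lower at week 4, 40 higher and 4 lower at week 5, and 40 higher and 2 lower at week 6, with median log2 fold changes of 0.81 and 0.77 at weeks 5 and 6. Of all genes tested, 0.227% were higher and 0.657% lower at week 2, and 5.43% higher and 2.86% lower at week 4. The shares of all genes were 19.1% higher and 16.3% lower at week 5, and 16.3% higher and 10.5% lower at week 6. Sp100, a nuclear body protein, averaged 5.38 ± 3.25 CPM (SD) in the 5 normal-diet libraries and 47.3 ± 7.23 CPM (SD) in the 3 of week 5. Slfn5 (log2 2.58 ± 0.31, SE), Ifi213 (2.82 ± 0.35), Ifi204 (2.67 ± 0.36), Casp4 (2.17 ± 0.35) and Phf11d (2.37 ± 0.36) also rose at week 5. The near copy Ifit3b moved as Ifit3 did (1.38 ± 0.35, SE, adjusted p = 0.00328 at week 5).

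Markers of other liver cells were higher at the same weeks as the genes that rose. At week 5, 12 of 12 Kupffer markers, 12 of 14 markers of monocytes, macrophages and dendritic cells, 15 of 15 sinusoidal endothelial markers, 12 of 13 stellate and myofibroblast markers and 2 of 3 plasmacytoid dendritic cell markers were higher. At week 6 the counts were 11, 13, 15, 12 and 2. Of all genes tested, 19.1% were higher at week 5 and 16.3% at week 6. Summed over the list, Kupffer markers were 99.8 to 581 CPM on normal diet, 1964 to 2131 CPM at week 5 and 1579 to 1941 CPM at week 6. Their most abundant genes, Cd5l and C1qb, went from means of 84.9 and 50.1 CPM on normal diet to 607 and 268 CPM at week 5. Endothelial markers, led by Aqp1 and Kdr, were 148 to 636 CPM, then 1817 to 2097 and 1399 to 1864 CPM. Stellate markers, led by Dcn and Ecm1, were 66.8 to 148 CPM, then 547 to 1161 and 519 to 897 CPM. Monocyte, macrophage and dendritic cell markers, led by Lyz2 and H2-Ab1, were 40.3 to 300 CPM, then 679 to 918 and 653 to 1020 CPM. This last list includes antigen-presentation genes that interferon can also raise. All 4 sums were thus higher in each late library than in any normal-diet library.

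Lymphocytes and neutrophils left little trace. Of 17 lymphocyte markers 3 were tested. At week 5, 1 was higher and 0 lower, and at week 6, 1 was higher and 1 lower. The sum went from 6.63 to 18.7 CPM on normal diet to 47.7 to 54.7 CPM at week 5, nearly all of it Ptprc, which all white blood cells express. The T cell receptor gene Trac had 0 counts in every library. Of 9 neutrophil markers 3 were tested and 1 was higher at each late week, the sum was at most 9.39 CPM in any library, and Ly6g had 0 counts in every library. Of 2 cholangiocyte markers tested, 1 was higher at each late week. Of 11 hepatocyte markers, 0 were higher and 6 at week 5 and 7 at week 6 were lower, beside 16.3% and 10.5% of all genes lower.

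The mean log2 level of the Kupffer, endothelial and stellate markers, with composition scaling, was 2.27 to 4.11 on normal diet. It was 5.63 to 5.89 at week 5 and 5.32 to 5.67 at week 6, with no overlap, as the plot of both measures by library shows. The mean log2 CPM of the 36 genes, on library size alone, was 3.66 ± 0.47 (SD, n = 5), 4.58 ± 0.12 (SD, n = 3) and 4.44 ± 0.15 (SD, n = 3), and there normal-diet library 2, at 4.42, overlapped week 6. With composition scaling that library stood at 4.52, above every week 5 and week 6 library, the highest of which was 4.49. With the marker level as a covariate, 0 of the 36 genes were called at weeks 4, 5 or 6 or late against early, and over all genes the model called 0 higher and 17 lower at week 5 and 4 higher and 20 lower at week 6. Time on the diet and the marker level moved together, so within these libraries a change inside hepatocytes and a change in the RNA of other cells cannot be told apart.

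**Figure D4:**
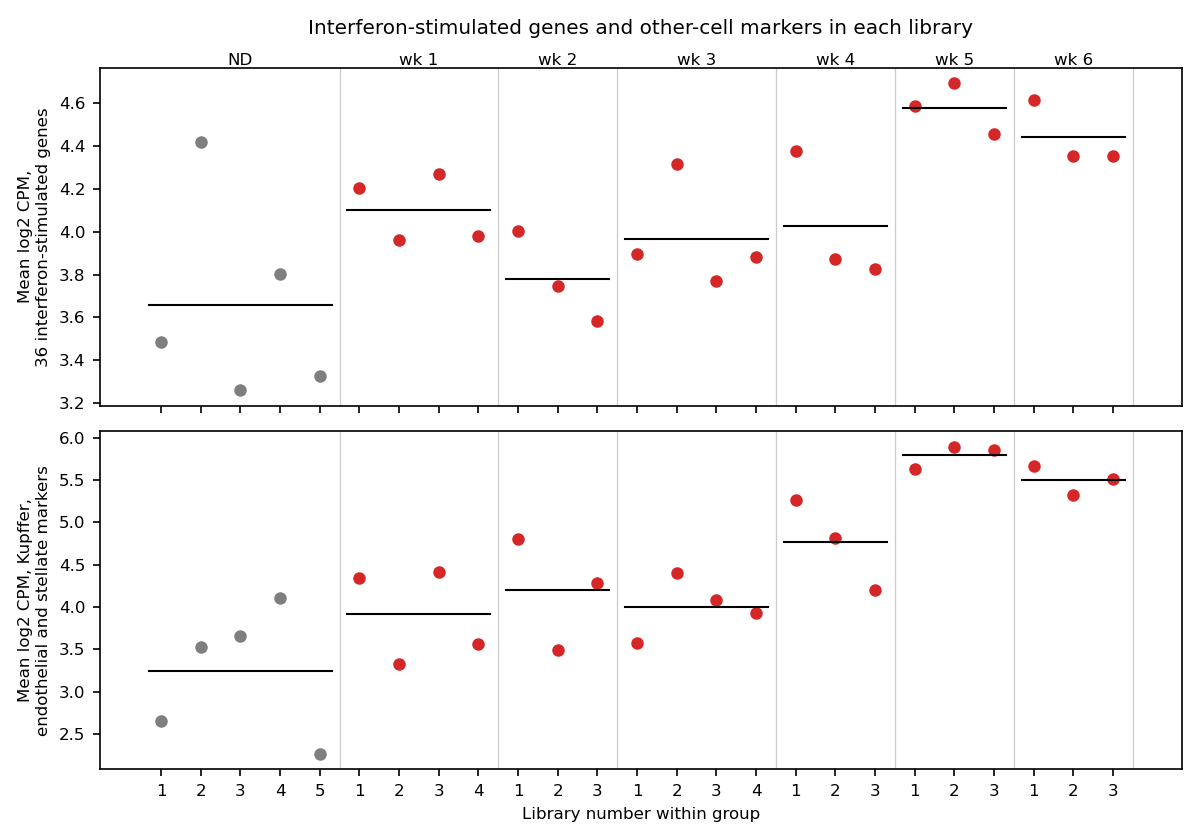
Mean log2 CPM of the 36 interferon-stimulated genes (top) and of the Kupffer, endothelial and stellate markers (bottom) in each library (points; grey, normal diet; red, NASH diet), with group means as lines. The top panel uses library size alone and the bottom one composition scaling. The group means of weeks 5 and 6 are highest in both. Normal-diet library 2 is high in the top panel (4.42) and lies within its group in the bottom one (3.53). The bottom panel does not include the monocyte, macrophage and dendritic cell markers.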

How the data were processed

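Per the file header and its values, the deposited table gives whole-number counts for each symbol and library, not normalized by the authors. The submitters' processing notes list STAR 2.7.1a, cutadapt and FastQC, with GRCm39 as the genome. No source used here names a counting tool or an annotation. Per the labels, the kit was QuantSeq 3' mRNA-Seq FWD.

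Totals were 5281143 to 10015751 counts per library. edgeR 4.0.16 (R 4.3.3) gave the tests (filterByExpr by group, TMM, robust quasi-likelihood F-test) in 1 model of 7 groups and 25 libraries with 18 residual degrees of freedom, adjusted by Benjamini-Hochberg over 11869 genes, called under 0.05. The fit was tested on simulated data. Standard errors are the change over the square root of F. CPM uses library totals, and log2 CPM a prior count of 2. The mean log2 level of the Kupffer, endothelial and stellate markers is composition-scaled. Alternatives were DESeq2 1.42.0, limma 3.58.1 voom, other scalings and filters, a replicate block, a marker covariate, only the groups compared, and libraries left out. No 2 libraries of a group were copies (chi-squared over degrees of freedom of 5.63 or more).

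The 36 genes and all lists were chosen with earlier results of these data known. Every called gene of the 36 is named, and values by library are given for those with the highest mean CPM, the smallest p or at least 1 per role. Of the other lists only some called genes are named. Sequences are from RefSeq on GRCm38.p6 and were used by symbol only, since the counts are on another build. Some withheld genes of the wider pathway lists are not reported here.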

Additional observations from a re-analysis of the deposited data

Results flagged for a closer look

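Of 111 sets of values from groups of 4 or 5 libraries, 108 for the single genes and 3 for the mean of the 36, 14 held 1 library separated from the rest by more than Dixon's 95% limit, where chance gives about 1 in 20. In 7 genes it was normal-diet library 2, on the high side: Irf1 at 55.4 CPM, Irf7 at 50.1, Zbp1 at 14, Igtp at 86.4, Irgm1 at 25.8, Psmb8 at 77.0 and Psmb9 at 50.6 CPM. In 4 genes it was week 3 library 2, also high: Ifit1 at 21.2 CPM, Ifi44 at 17.1, Trim30a at 20.3 and Gbp7 at 85.0 CPM. At week 1, library 3 was high for Irf7 at 34.3 CPM and for Tap1 at 31.2 CPM, and library 4 was low for Parp14 at 27.9 CPM. Within a library these genes were not independent of each other.

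The effect of weeks 5 and 6 differed from that of weeks 1 to 3, by the test of that difference itself in edgeR, for 15 genes. On the log2 scale it was higher late by 0.77 for Irf1, 0.64 for Irf7, 0.46 for Dhx58, 1.64 for Ifit2, 1.12 for Ifit3, 1.65 for Oas1a, 1.84 for Oasl2, 0.60 for Rsad2, 1.02 for Ifi44, 1.31 for Trim30a, 1.02 for Gbp2, 0.90 for Gbp3 and 0.73 for Lgals3bp. For Bst2 the difference was -0.76 and for Iigp1 -0.67. Beside these differences the markers of Kupffer, endothelial and stellate cells were higher late too, and their part was not tested.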

How the results depend on the processing

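With the marker level as a covariate, 0 of the 36 genes were called higher or lower in any comparison, and the log2 value changed sign for Gbp3 (-0.40 at week 5, -0.14 at week 6, -0.35 late against early), Mx1 (-0.45 at week 5), Gbp2 (-0.17 late against early) and Irf7 (-0.14 late against early), none of them called; the cause was not tested. At week 4 the count higher was 1 with no filter and 0 with only the groups compared, with the replicate block and without normal-diet libraries 1 and 5 (2 in the report), and the count lower was 1 with DESeq2 or the replicate block. At weeks 5 and 6 the count lower (1 each) was 0 with library size only or only the groups compared, and 2 with the replicate block or without normal-diet libraries 1 and 5. Late against early the count lower (2) was 0 with library size only and 4 with only the groups compared. With 1 library left out in turn, the counts higher and lower ranged from 0 to 4 and 0 to 1 at week 4, 11 to 15 and 1 to 3 at week 5, and 8 to 13 and 0 to 1 at week 6, and were 13 and 2 late against early, with Ifi47 in place of Bst2 among the lower without week 5 library 1. With the replicate block, 11 genes were higher at week 5 and 8 at week 6. The numbers do not pair the libraries: same-numbered libraries of different groups correlated at -0.441 to 0.406 in their deviations (66 pairs, 14 over 0.1). Of the single-gene values under all alternatives, 783 kept their side of the threshold, 102 kept their direction but lost the call and 6 changed sign. Depth limits Oas1a and Mx1, with 175 and 214 counts in all 25 libraries together. With only the groups compared, both had enough counts only where week 5 was included.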
